A study of Sus scrofa with 19 samples.

Results

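The genes that start and extend protein synthesis were examined in the *longissimus dorsi* (LD) muscle of 19 Duroc pigs, which the labels call *longissimus thoracis et lumborum*. A gene entered when the platform annotation gives a probe set exactly 1 symbol and that symbol starts with *EIF* (initiation factors) or *EEF* (elongation factors). This rule takes in 42 of the 6765 genes with such a probe set, among them a few proteins named after the factors they bind, regulate or modify. The 42 genes have 65 probe sets, of which the brightest (highest mean over the 19 arrays) stands for each gene. Of the genes, 26 have 1 probe set and 16 have several, up to 5. A further 6 probe sets that carry such a symbol next to that of another gene were left out. The muscle *EEF1A2* isoform, the translocase *EEF2* and its kinase *EEF2K*, *EIF5* and *EIF4EBP1* have no probe set under this rule and were not analysed here.

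All 19 animals were Duroc barrows (castrated males) of a commercial line made up of half-sib families, raised on a commercial diet under standard conditions and slaughtered at 190 days of age, with no treatment named. They came from the extremes of a larger population ranked on traits of fat deposition and fat composition in carcass, plasma and muscle. The 10 LD HIGH pigs stand at the fat end and the 9 LD LOW pigs at the lean end, and each pig was hybridised once to the Affymetrix GeneChip Porcine Genome Array. The groups therefore differ by selection on many fat traits at once. Pigs are named here by group and animal number. Family, fattening batch and laboratory are not given per pig, so their part in any difference was not tested. Signals are log2 values per probe set, and 17 tag control probe sets without a porcine target served as background, of which the highest reached 2.51 to 2.72 on the 19 arrays. The arrays resembled each other (lowest r of any 2 arrays 0.970), but LD HIGH 1536 and LD LOW 1918 stood apart, with the highest median signal of their groups and the lowest values on the leading component of the data, so results that turn without them are given both ways. Levels of different probe sets were not compared with each other, since probes differ in affinity.

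Initiation begins when EIF2, loaded with GTP and the initiator tRNA, joins EIF1, EIF1A and EIF3 on the small ribosomal subunit. The EIF4F complex (the cap-binding protein EIF4E, the scaffold EIF4G and the helicase EIF4A) brings in the mRNA, the start codon is found by scanning, and EIF5B then joins the large subunit. EIF2B reloads EIF2 with GTP, and kinases such as EIF2AK2 (PKR) slow initiation by phosphorylating the alpha subunit of EIF2. During elongation EEF1A carries aminoacyl-tRNAs to the ribosome, the EEF1B complex reloads it with GTP, and EIF5A relieves stalled ribosomes. In skeletal muscle, protein synthesis follows feeding and loading largely through the control of EIF4E and EIF2.

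All 42 genes exceeded every tag control on all 19 arrays, which was so for 79.1% of the 6765 genes. The mean signals of their brightest probe sets ran from 4.73 (*EIF4E2*) to 14.53 (*EIF1*). In the limma comparison of LD HIGH with LD LOW, 0 of the 42 genes passed an adjusted p of 0.05, as did 0 of all 24000 probe sets tested (percentage called 0%). The smallest adjusted p over all probe sets was 0.993. At an unadjusted p under 0.05 there were 4 genes (9.52%), against 3.51% of all probe sets, 1.87% higher and 1.64% lower in LD HIGH. The 4 were *EIF5B*, *EIF4A1* and *EIF2S2* with higher and *EIF5A* with lower signals in LD HIGH. Of all 42 genes, 26 lay above 0 and 16 below, and the median log2 difference was 0.04. Among all probe sets 41.3% lay above 0, and among the 6765 genes 49.4% did, with medians of -0.01 and 0.00. Without LD HIGH 1536 and LD LOW 1918, 20 of 42 genes lay above 0 and the median was -0.01, so the direction of the median rested on these arrays. The 6 genes that turned below 0 were *EIF6* (-0.02), *EIF2D* (-0.04), *EIF2B4* (-0.02), *EIF3B* (-0.04), *EIF3K* (-0.02) and *EIF4A3* (-0.02), all with differences under 0.1 in both fits. Without these 2 arrays 6 genes had an unadjusted p under 0.05 (limma), as *EEF1E1*, *EIF3H* and *EIF2AK2* came in and *EIF4A1* dropped out. The share of all probe sets in that fit is not given here, so the change from 4 to 6 is not read as a result about the factors. Groups overlapped for all 42 genes, and groups that do not overlap were found for 0.00417% of all probe sets. For 25 genes the difference was smaller than 0.1 and for 8 it was larger than 0.3. In 33 of 42 genes the 95% interval of the difference lay within 1.5-fold in either direction, so a larger difference was outside the interval for these genes and inside it for the other 9.

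**Figure D1:**
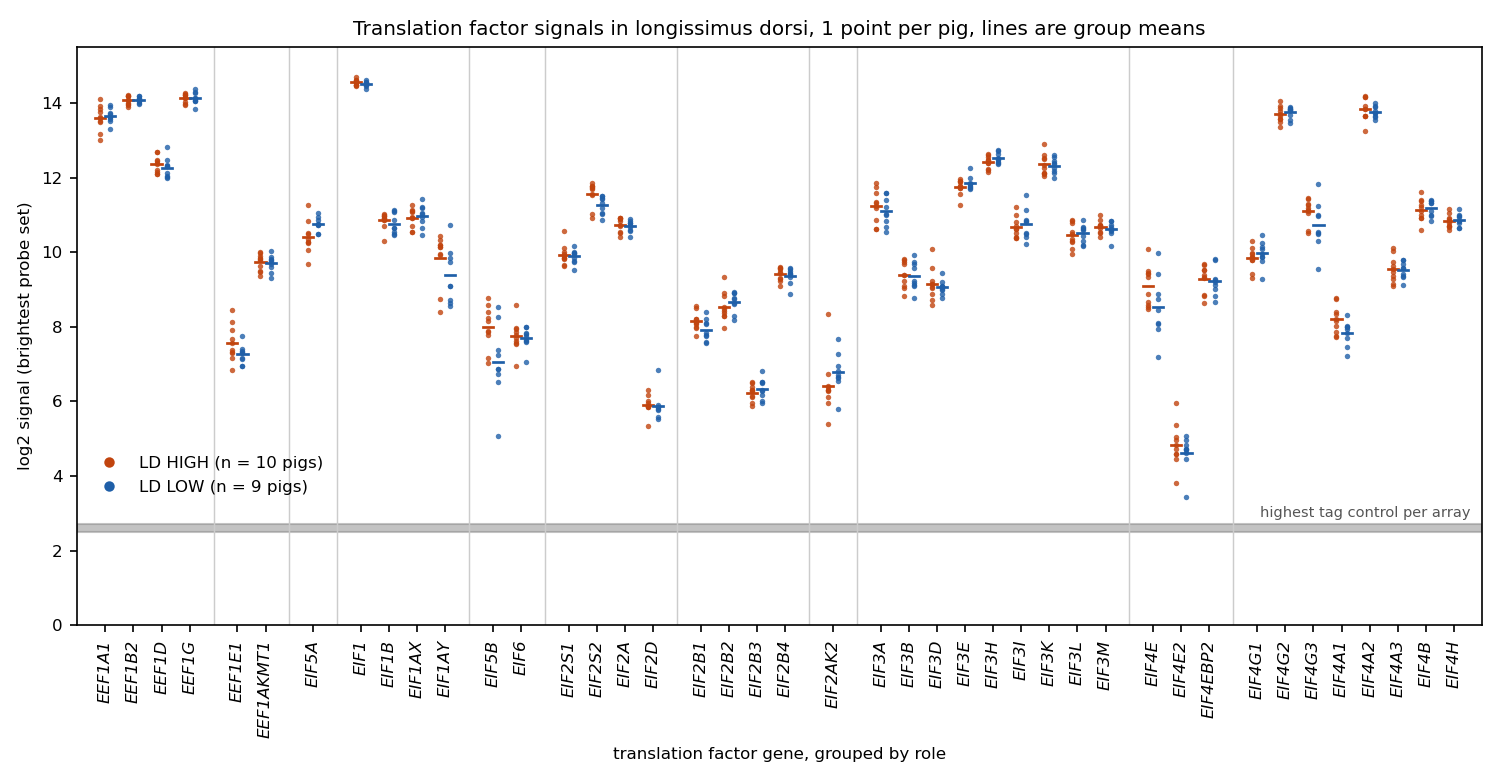
Log2 signal of the brightest probe set of each of the 42 genes (vertical axis), grouped by role along the horizontal axis, with 1 point per pig (red LD HIGH, n = 10; blue LD LOW, n = 9) and short lines for group means. The grey band spans the highest tag control per array, 2.51 to 2.72, and all points lie above it, with *EIF5B* showing the widest scatter (SD 0.92).

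*EEF1A1*, which carries aminoacyl-tRNA to the ribosome, was read by a control probe set of the array that targets the middle of its transcript, and had signals of 13.01, 13.62 and 14.11 (lowest, median and highest) in LD HIGH and 13.29, 13.62 and 13.96 in LD LOW. The log2 difference was -0.05 (SE 0.12, n = 10 and 9). The control probe sets at the 5' and the 3' end of the same transcript had 13.03 ± 0.35 and 13.73 ± 0.23 (SD, n = 19), and followed the middle one over pigs with r of 0.89 and 0.84. The other *EEF1A1* probe sets had means of 4.02, 4.70 and 7.93 and did not follow it (r of -0.35, 0.11 and -0.23, adjusted permutation p of 0.220, 0.672 and 0.391). Transcripts of *EEF1A1* and *EEF1A2* are alike in sequence, and whether a probe set also reads the other gene was not tested.

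*EEF1B2*, *EEF1D* and *EEF1G*, the exchange subunits that reload EEF1A with GTP, had signals of 14.08 ± 0.10, 12.32 ± 0.24 and 14.13 ± 0.13 (SD, n = 19). In *EEF1B2* all pigs lay between 13.89 and 14.22, and LD HIGH differed from LD LOW by -0.01 (95% interval -0.12 to 0.09). For *EEF1G* the interval ran from -0.15 to 0.13 and for *EEF1D* from -0.14 to 0.32. These 95% intervals lay within 1.5-fold in either direction for the mRNA signal of each gene's brightest probe set. The proteins of the exchange complex were not measured.

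*EIF5A*, the hypusine-containing factor that helps ribosomes over difficult sequences, had 9.68, 10.32 and 11.27 in LD HIGH (lowest, median and highest) and 10.48, 10.76 and 11.04 in LD LOW. The LD HIGH pigs spread wider and 8 of 10 lay below the LD LOW mean, but LD HIGH 1536 had the highest signal of all 19 pigs. The log2 difference was -0.36 (SE 0.15, unadjusted p = 0.0277, adjusted p = 0.993, limma). Leaving out 1 pig gave between -0.46 (unadjusted p = 0.00155, without LD HIGH 1536) and -0.28 (0.0543, without LD HIGH 2144), and the unadjusted p was above 0.05 without any 1 of 3 pigs (LD HIGH 1612, LD HIGH 2144 and LD LOW 1918). A second *EIF5A* probe set had a difference of -0.26 (SE 0.43, unadjusted p = 0.552, limma) and correlated with the first at r = 0.45, which was 0.05 without the 2 pigs farthest from the median.

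*EEF1E1*, an assembly factor of the aminoacyl-tRNA synthetase complex, had 7.58 ± 0.48 in LD HIGH and 7.26 ± 0.25 in LD LOW (difference 0.32, SE 0.18, unadjusted p = 0.0852, limma). Without LD HIGH 1536 and LD LOW 1918 the difference was 0.36 (unadjusted p = 0.0487). Its second probe set gave 0.35 (SE 0.23), and both followed each other over pigs (r = 0.77, rho = 0.71, adjusted permutation p of 0.00022 and 0.00445). *EEF1AKMT1*, a lysine methyltransferase of EEF1A, averaged 9.72 ± 0.22 with a difference of 0.03.

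Among the factors that select the start codon, *EIF1* and its paralogue *EIF1B* differed by 0.04 and 0.09 between groups. *EIF1*, which guards against initiation at wrong codons, lay between 14.38 and 14.69 over the 19 pigs (SD 0.07). Its second probe set had an SD of 0.15 and did not follow the first (r = 0.00), so the spread of *EIF1* depends on the probe set. *EIF1B* averaged 10.81 ± 0.24.

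*EIF1AX* and *EIF1AY*, the X-linked and Y-linked copies of EIF1A, behaved differently over pigs, although probes may read both copies. *EIF1AX* had 10.94 ± 0.27 and a group difference of -0.07 (SE 0.12), and its second probe set followed it over pigs (r = 0.78, adjusted permutation p = 0.00022) but had a group difference of the opposite sign (0.09, SE 0.17), so no direction is given for it. *EIF1AY* had 8.39, 10.14 and 10.44 in LD HIGH (lowest, median and highest) and 8.55, 9.10 and 10.74 in LD LOW. Its signals fell into a set of 7 pigs between 8.39 and 9.10 and a set of 12 pigs between 9.73 and 10.74, with an empty stretch of 0.62 between them. Both groups were found in both sets, 2 of 10 LD HIGH and 5 of 9 LD LOW pigs being in the lower one. The group difference was 0.47 (SE 0.31, unadjusted p = 0.144, limma).

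*EIF5B*, the GTPase that joins the ribosomal subunits, had the largest difference and the largest spread of the 42 genes. Its signals were 7.03, 8.03 and 8.76 in LD HIGH (lowest, median and highest) and 5.06, 6.88 and 8.54 in LD LOW. In LD HIGH 9 of 10 pigs lay above the LD LOW mean, yet LD LOW 1444 (8.54) and LD LOW 8700 (8.26) lay among the higher LD HIGH pigs. LD LOW 2172 was lowest at 5.06. The log2 difference was 0.93 (SE 0.35, 95% interval 0.20 to 1.66, unadjusted p = 0.0147, adjusted p = 0.993, limma), and it was the only one past 1.5-fold. Leaving out 1 pig at a time gave 0.68 (without LD LOW 2172) to 1.12 (without LD LOW 1444), with unadjusted p between 0.00288 and 0.0285.

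A second *EIF5B* probe set, dimmer at 5.51 on average, had 5.14, 6.04 and 6.62 in LD HIGH and 4.31, 4.80 and 6.60 in LD LOW. Its difference was 0.91 (SE 0.26, unadjusted p = 0.00276, adjusted p = 0.993, limma). Over the 19 pigs it followed the first at r = 0.84 and rho = 0.89 (adjusted permutation p of 0.000147 and 0.00022), and r was 0.85 without the 2 farthest pigs. The remaining probe set averaged 3.07, close to the tag controls, with a difference of 0.08 (SE 0.09). The 2 brighter probe sets read the same pigs and are not separate evidence of a group difference.

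*EIF6*, which keeps the subunits apart until they are needed, had 7.75 ± 0.41 (LD HIGH) and 7.70 ± 0.28 (LD LOW). The genes of initiator tRNA delivery had differences of 0.02 (*EIF2D*), 0.04 (*EIF2A*), 0.05 (*EIF2S1*) and 0.30 (*EIF2S2*), of which *EIF2D* was -0.04 without LD HIGH 1536 and LD LOW 1918 and *EIF2A* 0.0014 without LD LOW 2172. *EIF2S2*, the beta subunit of EIF2, had 10.91, 11.71 and 11.86 in LD HIGH (lowest, median and highest) and 10.87, 11.33 and 11.52 in LD LOW. In LD HIGH 8 of 10 pigs lay above every LD LOW pig. The exceptions LD HIGH 1536 (10.91) and LD HIGH 1533 (11.04) lay among the lowest pigs of all. Its difference had SE 0.13 (unadjusted p = 0.0320, adjusted p = 0.993, limma), and the unadjusted p ran from 0.00425 without LD HIGH 1536 to 0.0691 without LD LOW 1918, and it was above 0.05 without any 1 of 8 pigs (LD HIGH 1452, 1468, 1612, 1619 and 1903, and LD LOW 1918, 2172 and 2187).

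*EIF2S1*, the alpha subunit whose phosphorylation slows initiation, had 9.63, 9.88 and 10.56 in LD HIGH and 9.52, 9.96 and 10.16 in LD LOW. The groups overlapped and the 95% interval of the difference ran from -0.18 to 0.28. The array measures mRNA, and the phosphorylation of the protein was not measured.

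Of the exchange factor EIF2B, which reloads EIF2, *EIF2B1* and *EIF2B4* lay above 0 (0.22 and 0.05) and *EIF2B2* and *EIF2B3* below (-0.12 and -0.11). The largest of these, *EIF2B1*, had an unadjusted p of 0.0907 (limma).

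*EIF2AK2*, the interferon-inducible kinase of EIF2, had 5.39, 6.31 and 8.35 in LD HIGH and 5.80, 6.71 and 7.66 in LD LOW. LD HIGH 1536 was far above the other 9 pigs of its group (6.21 ± 0.37), and 9 of 10 LD HIGH pigs lay below the LD LOW mean. The difference was -0.36 (SE 0.29, unadjusted p = 0.224, limma) with all pigs and -0.57 (unadjusted p = 0.0115) without LD HIGH 1536, so 1 pig moved the value by over 1.5 times. The adjusted p without this pig and LD LOW 1918 was 0.918.

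The 9 measured subunits of EIF3, the scaffold that holds the small subunit ready for mRNA, gave differences between -0.12 (*EIF3H*) and 0.15 (*EIF3A*), 5 above and 4 below 0. *EIF3H* had 12.16, 12.43 and 12.63 in LD HIGH (lowest, median and highest) and 12.35, 12.51 and 12.74 in LD LOW (unadjusted p = 0.137, limma, and 0.0488 without LD HIGH 1536 and LD LOW 1918). *EIF3E* had 11.75 ± 0.21 and 11.86 ± 0.17 in the same order of groups. *EIF3A*, the largest subunit, had 11.24 ± 0.44 and 11.10 ± 0.38, whereas *EIF3B*, the other core scaffold, had 9.40 ± 0.35 and 9.36 ± 0.38. *EIF3K* and *EIF3L*, peripheral subunits that bind each other, differed by 0.03 and -0.05, and *EIF3D*, *EIF3I* and *EIF3M* by 0.09, -0.09 and 0.07. A second *EIF3M* probe set, dimmer at 6.49 on average, had a difference of 0.40 (SE 0.27, unadjusted p = 0.157, limma). Its relation to the brightest was weak (r = 0.36, rho = 0.12, adjusted permutation p of 0.210 and 0.689), so the size for *EIF3M* depends on the probe set. The sign of *EIF3K* and *EIF3B* turned without LD HIGH 1536 and LD LOW 1918 (-0.02 and -0.04).

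Among the cap-binding genes, *EIF4E*, which holds the mRNA cap, had 8.48, 9.11 and 10.09 in LD HIGH and 7.18, 8.46 and 9.98 in LD LOW. In LD HIGH 9 of 10 pigs lay above the LD LOW mean, and the highest LD LOW pig exceeded all but 1 LD HIGH pig. The difference was 0.56 (SE 0.30, 95% interval -0.06 to 1.19, unadjusted p = 0.0759, limma), and it was 0.40 without LD LOW 2157. *EIF4E2*, a cap-binding homologue linked to translational repression, had 4.84 ± 0.57 and 4.62 ± 0.48 (difference 0.22, and 0.07 without LD LOW 1918). *EIF4EBP2*, a repressor that competes with EIF4G for EIF4E, had 9.27 ± 0.37 and 9.22 ± 0.39 (difference 0.06), and 2 of its other probe sets followed the brightest (r of 0.65 and 0.63, adjusted permutation p of 0.00842 and 0.00818).

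The EIF4A helicases unwind the leader of the mRNA. *EIF4A1* had 7.73, 8.18 and 8.76 in LD HIGH (lowest, median and highest) and 7.22, 7.94 and 8.30 in LD LOW, with 8 of 10 LD HIGH pigs above the LD LOW mean. Its difference was 0.37 (SE 0.16, unadjusted p = 0.0304, adjusted p = 0.993, limma). It was 0.30 (unadjusted p = 0.0682) without LD LOW 2157 and 0.33 (0.0736) without LD HIGH 1536 and LD LOW 1918, and the unadjusted p was above 0.05 without any 1 of 4 pigs (LD HIGH 1533 and 8697, LD LOW 1594 and 2157). The paralogue *EIF4A2* had 13.84 ± 0.30 and 13.77 ± 0.15, and *EIF4A3*, the helicase of the exon junction complex, had 9.54 ± 0.34 and 9.52 ± 0.22. The helicase cofactors *EIF4B* and *EIF4H* differed by -0.05 and -0.03.

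The EIF4G scaffolds spread unequally over pigs. *EIF4G3* had 10.52, 11.16 and 11.46 in LD HIGH and 9.54, 10.55 and 11.83 in LD LOW, so that LD LOW held both the lowest pig (2172) and the highest (1444). Its difference was 0.38 (SE 0.22, unadjusted p = 0.0965, limma), and 0.23 (unadjusted p = 0.225) without LD LOW 2172. *EIF4G2*, a homologue that does not bind EIF4E, stayed between 13.37 and 14.05 with a difference of -0.05. *EIF4G1* had 9.84 ± 0.29 and 9.97 ± 0.33 (difference -0.13, SE 0.14), while its other probe set had the opposite sign (0.27, SE 0.35), so no direction is given for it.

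**Figure D2:**
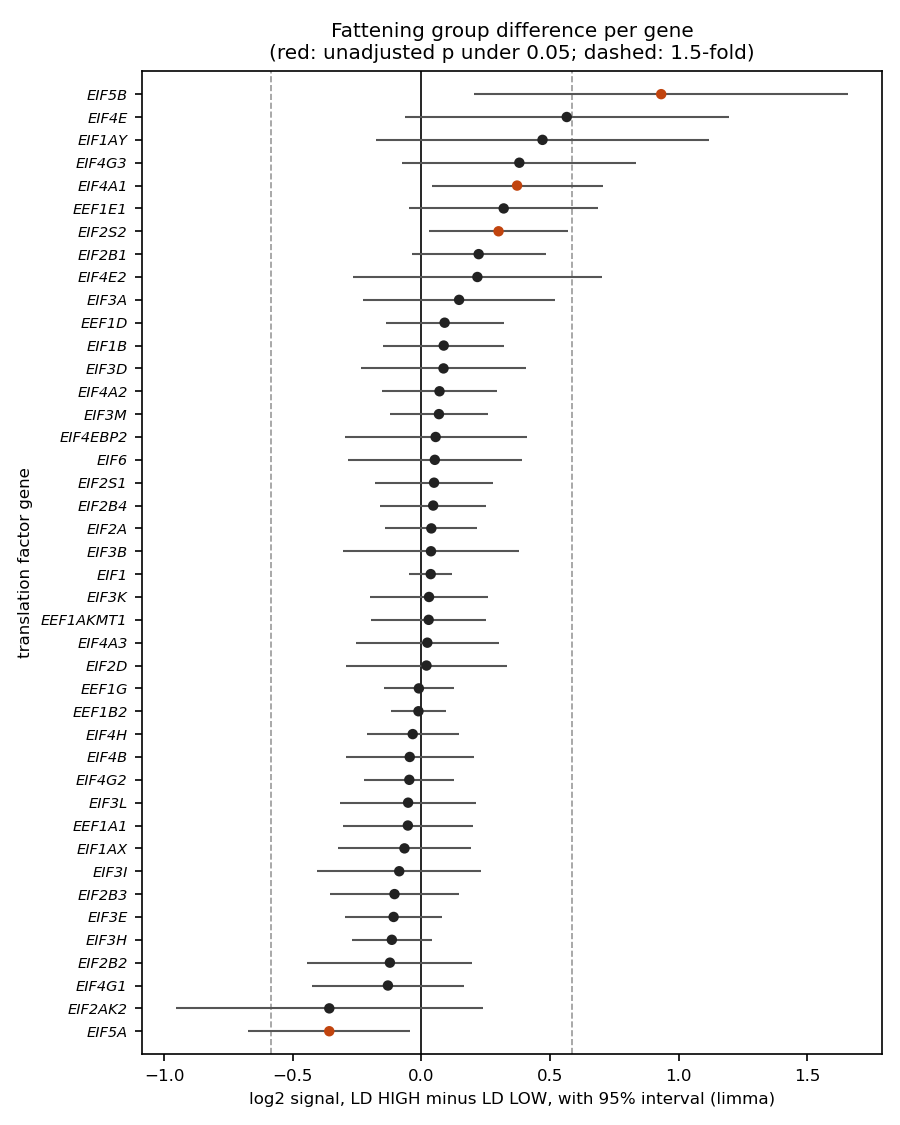
Log2 difference of LD HIGH minus LD LOW (horizontal axis) for each of the 42 genes (vertical axis, ordered by the difference), with 95% intervals from limma as lines; red points have an unadjusted p under 0.05 and dashed lines mark 1.5-fold. *EIF5B* (0.93) stands at one end and *EIF5A* (-0.36) at the other, and 25 genes lie within 0.1 of 0.

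Recovery of planted changes was read from simulated data with the same group sizes. Noise was drawn independently for each probe set, and changes were placed in probe sets above the median signal. Of probe sets changed by 1.5-fold, 44.8% of 67 were recovered, and of those changed by 2-fold 82.1% of 67. Signals on the real arrays vary together and need not hold as many changes, so recovery in these data may be lower. Differences of the size seen here could thus be missed, and an adjusted p of 0.993 does not show that the groups are alike. Markers of other cells were read beside the factors, and 0 passed an adjusted p of 0.05. Of 11 adipocyte markers 7 were measured, 6 lay above 0 in LD HIGH and 3 had an unadjusted p under 0.05 (*FABP4* 0.58, *ADIPOQ* 1.39 and *LIPE* 1.06, all at adjusted p = 0.993, limma), while *LEP* exceeded the tag controls on 0 arrays. Their mean level ran from 5.54 to 6.42 in LD HIGH and from 5.14 to 6.31 in LD LOW. Of 8 measured macrophage markers 7 lay below 0, with mean levels of 4.01 to 5.40 and 3.92 to 5.31, and 10 muscle markers, all above background, averaged 14.79 to 14.90 and 14.81 to 14.91. Of the markers of lymphocytes, endothelial cells, fibroblasts and blood cells, 1 of 8, 2 of 7, 5 of 6 and 2 of 3 measured genes lay above 0, and 0 had an unadjusted p under 0.05 (limma). In the same order 4, 6, 6 and 1 of them exceeded the tag controls on all arrays, as did 5 adipocyte and 6 macrophage markers. Directions of the rest therefore come from values near background. The share that such cells have in the differences of *EIF5B*, *EIF4E* or *EIF5A* was not tested, and in whole muscle fewer cells of a type and less RNA per cell cannot be told apart. RNA quality, read as the 3' minus 5' signal of control transcripts including *EEF1A1*, ran from 0.86 to 1.20 in LD HIGH and from 0.77 to 1.61 in LD LOW. With it as a covariate the difference of *EIF5B* was 0.97, that of *EIF5A* -0.36 and that of *EIF4A1* 0.38.

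The factors differed from each other in their spread over pigs. The median SD of the 42 genes was 0.28, against 0.32 for the 5348 genes above background on every array. An SD under 0.2 was found for 10 genes, among them *EIF1*, *EEF1B2*, *EEF1G*, *EIF3H* and *EIF4H*. An SD over 0.5 was found for 6 genes, namely *EIF5B* (0.92), *EIF1AY* (0.74), *EIF4E* (0.74), *EIF2AK2* (0.66), *EIF4E2* (0.53) and *EIF4G3* (0.53). The shares of all genes past these SD limits are not given here, so the counts are not read as particular to the factors. Each pig had 1 array, so this spread holds both differences between pigs and measurement noise. Of 22 relations between probe sets that target the same transcript, the *EEF1A1* controls included, 19 were positive and 8 passed an adjusted permutation p of 0.05.

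Several of the variable genes followed each other over pigs. Over the 861 pairs of the 42 genes the median r was 0.08, with 11.0% of pairs above 0.5 and 3.95% below -0.5. Among pairs of the 5348 genes above background the median was 0.01, with 5.42% and 4.23%. All these genes share the same 19 arrays, so array-wide differences enter every r. Without LD HIGH 1536 and LD LOW 1918 the values were 0.05, 10.1% and 5.23% for the 42 genes. Among the genes above background they were 0.01, 5.33% and 4.03% without the same pigs.

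**Figure D3:**
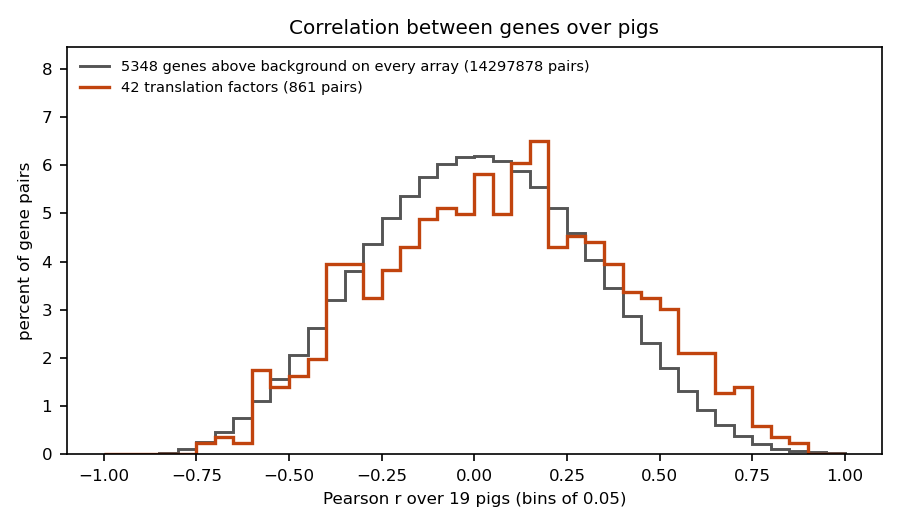
Percent of gene pairs (vertical axis) by Pearson r over 19 pigs (horizontal axis, bins of 0.05) for the 42 translation factors (861 pairs, red) and for all 5348 genes above background on every array (grey). The red outline is the higher one at the right, with 11.0% of its pairs above 0.5 against 5.42%.

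The highest r of all 861 pairs was that of *EIF5B* and *EIF4G3* (0.86), which held within LD HIGH (0.78), within LD LOW (0.86) and without LD HIGH 1536 and LD LOW 1918 (0.89). *EIF5B* and *EIF2S2* had 0.79, *EIF6* and *EIF4A3* 0.82, *EIF2B2* and *EIF3L* 0.80, *EIF2B2* and *EIF3K* 0.77 and *EEF1B2* and *EIF2B2* 0.76. Pairs with *EIF1AY*, which also reached pooled values this high, are left to the within-set values given further on. The pairs here were picked for their r and are given with no test. At the other end, *EEF1G* and *EIF4G3* had -0.73 (-0.59 within LD HIGH and -0.85 within LD LOW), *EIF2S2* and *EIF2AK2* -0.71, and *EIF3A* and *EIF3K*, which encode subunits of the same complex, -0.66. Several of these genes also followed the 3' minus 5' signal over pigs, with r of -0.70 for *EIF3I*, -0.62 for *EEF1G*, -0.51 for *EIF3K*, -0.50 for *EEF1D*, 0.48 for *EIF3A* and 0.42 for *EIF4G3*, and the part of RNA quality in their co-variation was not tested.

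The pigs with low *EIF1AY* were also those with low *EIF2S2*. All 7 pigs of the lower *EIF1AY* set were the 7 lowest for *EIF2S2* (10.87 to 11.33, the other 12 at 11.42 to 11.86), and 6 of them were among the 7 lowest for *EIF5B* and 6 among the 7 lowest for *EIF4G3*. Within the sets the relation of *EIF1AY* and *EIF2S2* was weak, with r of 0.34 over the 7 pigs and 0.03 over the 12. In the same order *EIF1AY* had r of 0.24 and 0.31 with *EIF5B*, and 0.36 and 0.57 with *EIF4G3*. The division was seen only after the values were known and was not tested.

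These genes also followed the axis on which the arrays differ most. The leading component of all probe sets other than those of the 42 genes held 18.7% of the variance. It was lowest in LD HIGH 1536 (-50.6) and highest in LD HIGH 8697 (33.9), and the 7 pigs of the lower *EIF1AY* set were the 7 lowest on it. Of 42 relations with this component, 11 passed an adjusted permutation p of 0.05, 9 of them positive. The sign of the component is arbitrary and was set so that *EIF2S2* was positive. The share of all genes that follow this component is not given here, so the count is not read as particular to the factors. *EIF2S2* had r = 0.86 and rho = 0.80 (adjusted permutation p of 0.00021 and 0.00273), r = 0.80 without the 2 farthest pigs, and 0.86 and 0.81 within LD HIGH and LD LOW. *EEF1E1* had r = 0.76 and rho = 0.77 (adjusted permutation p of 0.00182 and 0.00322), and *EIF5B* r = 0.61 and rho = 0.61 (0.0261 and 0.0315). *EIF2AK2* ran the other way with r = -0.74 and rho = -0.66 (0.00273 and 0.0220), as did *EIF5A* with r = -0.70 and rho = -0.61 (0.00658 and 0.0315). For *EIF5A* r was -0.54 without the 2 farthest pigs, -0.75 within LD HIGH and -0.29 within LD LOW. In the same order *EIF2AK2* had -0.61, -0.72 and -0.68. *EIF1AY* was among the 11, but within its sets of 7 and 12 pigs r was 0.27 and 0.37. Within the same sets *EIF2S2* had r of 0.53 and 0.36 with the component, below its pooled value. Of the 8 genes with a group difference larger than 0.3, 6 were among the 11 (*EIF4E* and *EIF4A1* were not). The part this component has in those differences was not tested.

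**Figure D4:**
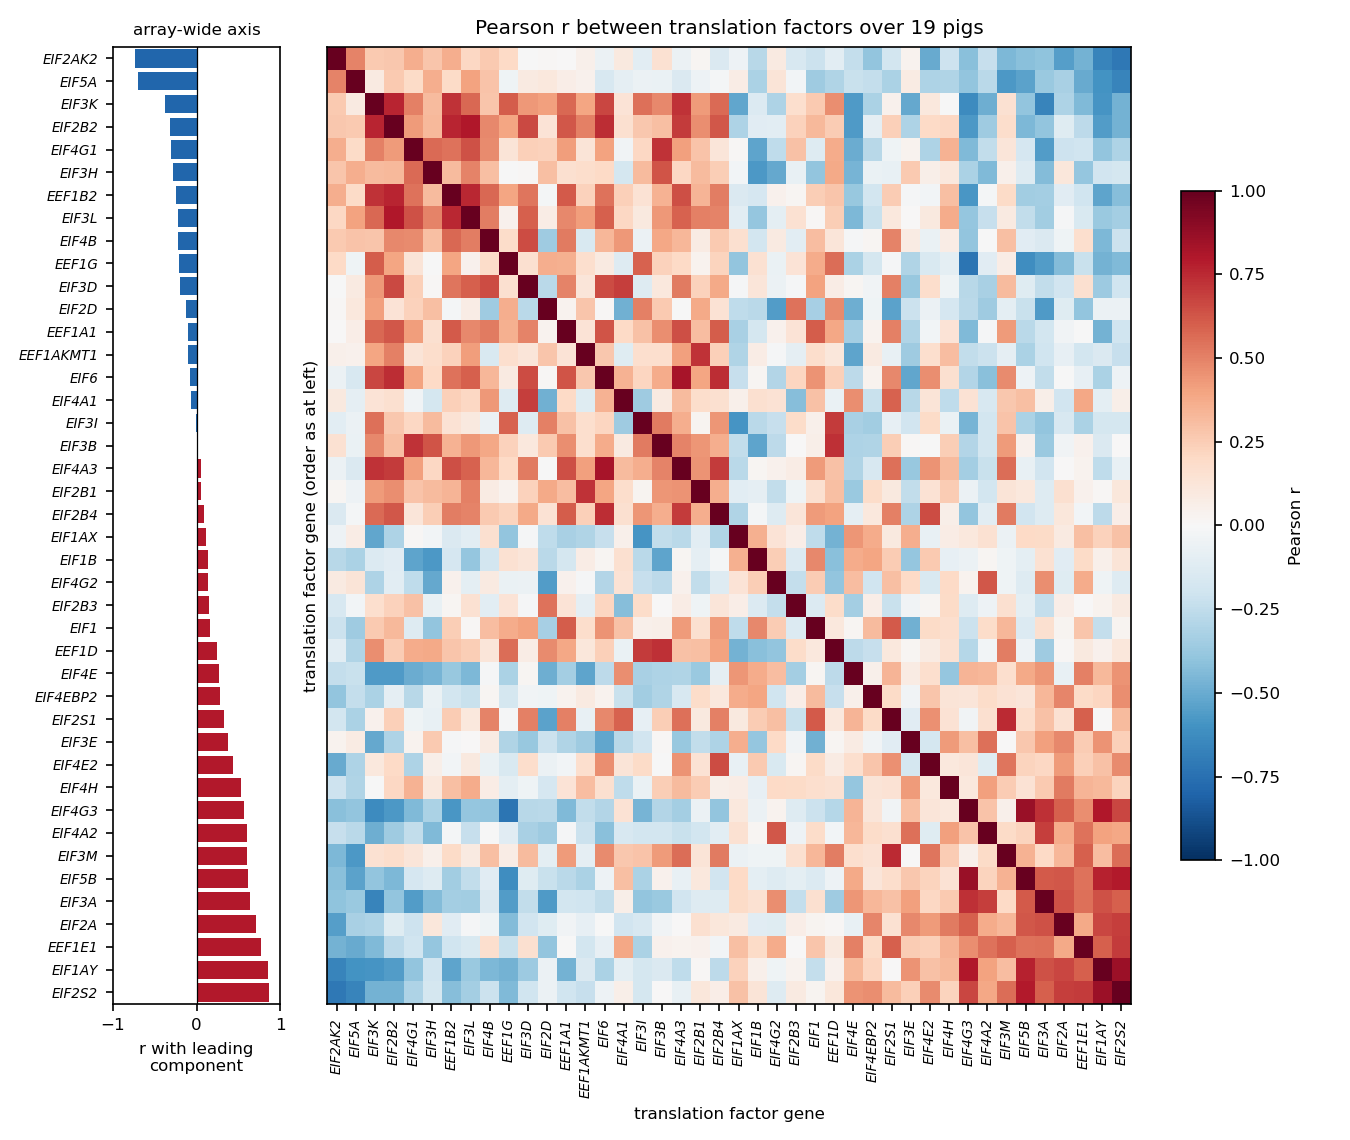
Right, Pearson r over 19 pigs for every pair of the 42 genes (colour, -1 blue to 1 red), with both axes ordered by the r of each gene with the leading component of the other probe sets, which the bars at left show. A red block with *EIF2S2*, *EIF1AY*, *EEF1E1*, *EIF2A*, *EIF3A* and *EIF5B* stands at the lower right, and *EIF2AK2* and *EIF5A* at the top run against it.

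Partners with a shared complex or ancestor were compared in 14 pairs, each by r over 19 pigs and by the balance of both signals within a pig. None of the 14 relations passed an adjusted permutation p of 0.05 (0 of 14, 11 positive, smallest adjusted p 0.0907). *EIF3K* and *EIF3L* had r = 0.58 and rho = 0.56 (permutation p of 0.00995 and 0.0144, adjusted 0.0907 and 0.101). The r of *EIF3K* and *EIF3L* was 0.78 within LD HIGH and 0.20 within LD LOW, and 0.79 (adjusted p = 0.00154) without LD LOW 1444. *EEF1D* and *EEF1G* had r = 0.56 and rho = 0.59 (permutation p of 0.0130 and 0.00837, adjusted 0.0907 and 0.101), 0.66 and 0.53 within the groups and 0.50 without the 2 farthest pigs. *EIF1* and *EIF1B* had r = 0.48 and rho = 0.45 (adjusted 0.161 and 0.189). The lowest were *EIF3A* with *EIF3B* (r = -0.37, rho = -0.38, adjusted 0.271 and 0.244), *EIF4G1* with *EIF4G2* (-0.25 and -0.35, adjusted 0.421 and 0.273) and *EIF4A1* with *EIF4A2* (-0.16 and -0.15, adjusted 0.608 and 0.617). Over all 36 pairs of EIF3 subunits the median r was 0.13, from -0.66 to 0.63.

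**Figure D5:**
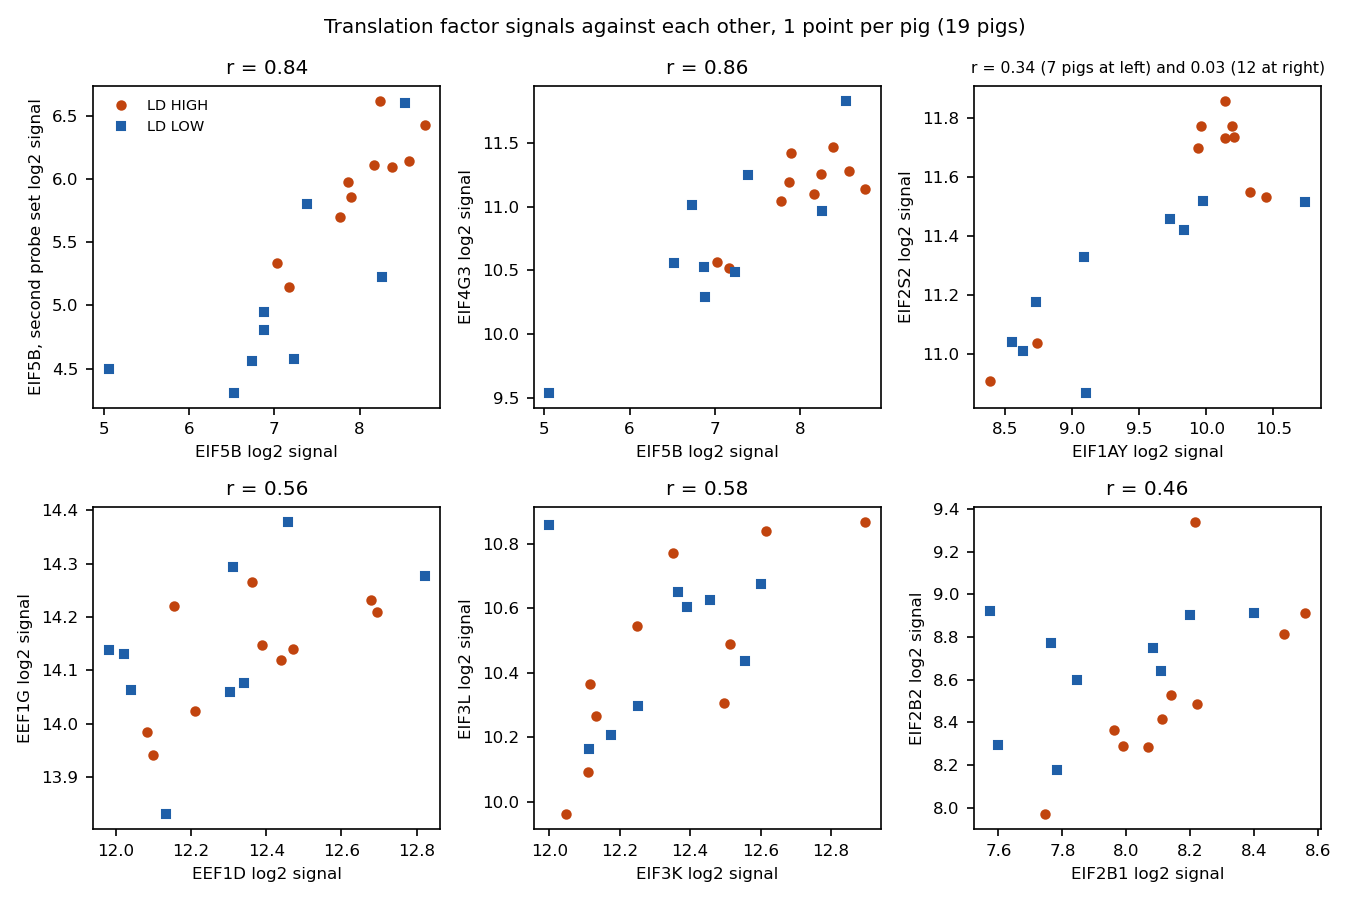
Log2 signals of a pair of probe sets on both axes in 6 panels, with 1 point per pig (red circles LD HIGH, n = 10; blue squares LD LOW, n = 9) and Pearson r above each panel. The 2 brighter *EIF5B* probe sets move together (0.84), *EIF1AY* leaves a gap between 7 and 12 pigs, and LD LOW 1444 lies apart for *EIF3K* and *EIF3L*.

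The balance within a pig, the difference of both log2 signals, removes any scaling that acts on a whole array. Between groups 0 of 14 balances passed in the exact two-sided permutation test over 92378 splits (smallest adjusted p 0.179). The balance of *EIF2B1* over *EIF2B2*, subunits of the EIF2 exchange factor, was -0.39 ± 0.27 (mean ± SD) over 10 LD HIGH pigs, against -0.74 ± 0.29 over 9 LD LOW pigs. It differed by 0.35 (SE 0.13, exact permutation p = 0.0128, adjusted 0.179), and 9 of 10 LD HIGH pigs lay above the LD LOW mean. LD HIGH 1533 stood at -1.12 where the other 9 had -0.31 ± 0.07, and without it the difference was 0.43 (exact permutation p adjusted to 0.00115), whereas the exact permutation of rank sums gave an adjusted p of 0.0294 with all pigs, so that the call depended on 1 pig and on the test. The balances of *EIF1AX* over *EIF1AY* and of *EIF4G2* over *EIF4G3* differed by -0.54 and -0.43 (exact permutation p of 0.108 and 0.0878, adjusted 0.379 each). *EIF2S1* over *EIF2S2* differed by -0.25 (exact permutation p = 0.0987, adjusted 0.379) and *EIF4A1* over *EIF4A2* by 0.30 (0.187, adjusted 0.523).

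Other genes of translation control were measured beside the factors. Of 40 aminoacyl-tRNA synthetase genes and their scaffold proteins 17 were measured, 13 above and 4 below 0 with a median of 0.05. *NARS*, which charges asparagine tRNA, had 9.09 ± 0.27 and 8.84 ± 0.20 (difference 0.25, SE 0.12, unadjusted p = 0.0453, adjusted p = 0.993, limma), and the scaffold protein *AIMP1* had a difference of 0.19. Of 11 genes of the integrated stress response, which is set off by phosphorylated EIF2, 8 were measured with a median of 0.03, and 0 had an unadjusted p under 0.05. The stress transcription factor *DDIT3* had 7.53 ± 0.81 and 6.76 ± 0.995 (difference 0.77, unadjusted p = 0.0619, limma). *PPP1R15A*, which directs the phosphatase of EIF2, had 7.61 ± 0.59 and 6.95 ± 1.01 (difference 0.65, unadjusted p = 0.0789, limma). The transcription factor *ATF4* differed by 0.03. Of 26 genes of the mTORC1 pathway 13 were measured with a median of 0.02, 7 above and 6 below 0, the smallest unadjusted p being those of *RRAGC* (0.102) and *TSC1* (0.119). Among 10 measured genes of mRNA binding, termination and recycling, 5 lay above and 5 below 0, with the poly(A)-binding genes *PABPC4* at -0.15 and *PABPC1* at 0.14. In these lists 0 genes passed an adjusted p of 0.05 (limma), and 1 of 48 had an unadjusted p under 0.05.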

How the data were processed

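Muscle RNA of 19 pigs was hybridised to 1 array each. The authors deposited a log2 signal per probe set, by GCRMA in the submitters' processing notes (version not given), whereas the study's methods describe RMA. Background adjustment by probe sequence can spread low signals. A deposited subset of 4268 probe sets, selected by an unstated rule, held the same log2 values. Of 24114 probe sets, 24000 were fitted with limma 3.58.1 (R 4.3.3) and a mean-variance trend, without the array's controls except the *EEF1A1* one. P-values were adjusted by Benjamini-Hochberg. Partner balances were compared by exact two-sided permutation, and correlations by 100000 permutations (scipy 1.17.1), each family adjusted by itself. The number of arrays limits the precision, since probe signals hold no read depth. The fit was tested on simulated data, where 159 probe sets were called, 10 of them unchanged.

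Genes described in full were the 5 with the smallest p in each direction, the 5 with the largest SD, the 3 partner pairs with the highest and the 3 with the lowest r, and *EEF1A1*, *EIF4E*, *EIF5A* and *EIF2S1*. Of the other translation lists the 2 genes with the smallest p are named, *ATF4* and the most extreme of the 861 pairs being chosen after their values were seen. The members and lists were chosen with earlier results of these data known. Alternatives were array weights, robust moderation, no trend, quantile normalization, centring, a filter on low values, covariates, the deposited subset, other probe set choices, and leaving out pigs. Of the 42 genes, 41 matched RefSeq by Entrez identifier with the same symbol. The gene without a match was *EIF2S2*, whose symbol rests on the platform annotation.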

Additional observations from a re-analysis of the deposited data

Results flagged for a closer look

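In 14 of 116 groups of values tested, 1 pig stood farther from the rest of its group than Dixon's limit, and chance gives about 1 in 20, or 6. LD HIGH 1536 had an *EIF1B* signal of 10.30 (the other 9 pigs 10.92 ± 0.10, SD), an *EIF2AK2* signal of 8.35 (6.21 ± 0.37) and an array median of 3.598 (3.48 ± 0.03). LD HIGH 8697 had 10.56 for *EIF2S1* (9.86 ± 0.15) and 5.33 for *EIF2D* (5.97 ± 0.16).

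Among within-pig balances, that of *EIF4B* over *EIF4H* was -0.47 in LD HIGH 2144 (0.39 ± 0.21), and that of *EIF2B1* over *EIF2B2* was -1.12 in LD HIGH 1533 (-0.31 ± 0.07). In LD LOW the balance of *EEF1B2* over *EEF1D* was 1.24 in pig 2157 (the other 8 pigs 1.89 ± 0.13), and that of *EIF3K* over *EIF3L* was 1.14 in pig 1444 (1.91 ± 0.13), whose 3' minus 5' signal of control transcripts was also highest at 1.61 (1.003 ± 0.15).

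LD LOW 1918 was lowest of its group for *EIF6*, which keeps the ribosomal subunits apart, with 7.06 (7.78 ± 0.16). It was also lowest for the EIF3 subunit *EIF3M* with 10.17 (10.67 ± 0.12) and for *EIF4E2* with 3.43 (4.77 ± 0.19). LD LOW 2157 was highest for *EIF2D* with 6.85 (5.77 ± 0.14).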

How the results depend on the processing

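No translation factor passed an adjusted p of 0.05 (limma) under any alternative run (0 of those tested, which were all 42 except in the deposited subset). With array weights 5 probe sets passed over all genes, 0 of them translation factors (10 of 42 at an unadjusted p under 0.05, against 12.2% of all probe sets, smallest adjusted p 0.124), the factors' median was -0.02, and among the 24 genes described in full the differences of *EIF3K* (-0.062), *EIF3B* (-0.060), *EIF4G2* (0.0073), *EEF1G* (0.0030) and *EIF2S1* (-0.034) changed sign. In the deposited subset, which holds 6 of the 42 probe sets, the median was 0.43 and 5 lay above 0. With the mean of all probe sets of a gene, *EIF4G1* (0.067) and the balances of *EIF4G1* over *EIF4G2* (0.11) and *EIF4B* over *EIF4H* (0.072) changed sign. Without LD HIGH 1536 and LD LOW 1918, a choice made after seeing the data, the difference of 6 genes changed sign, *EIF3K* (-0.018) and *EIF3B* (-0.041) among those described in full. In that fit 6 genes had an unadjusted p under 0.05 (limma), with no share of all probe sets given beside it.

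Of the 14 balances, 1 (*EIF2B1* over *EIF2B2*, 0.35) passed by the exact permutation of rank sums (adjusted p = 0.0294). After subtracting group means, 3 of 14 correlations passed (*EEF1D* with *EEF1G* 0.58, *EIF3K* with *EIF3L* 0.59, *EIF2B1* with *EIF2B2* 0.60, adjusted permutation p = 0.0462). Leaving out 1 pig, balances that passed numbered 0 to 1 (1 without LD HIGH 1533) and correlations 0 to 1 (1 without LD LOW 1444), the median was 0.0041 to 0.054 and 22 to 29 genes lay above 0.

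Values near 0 changed sign in some of these fits, for 17 of the 42 genes. Among those described in full they were *EEF1A1* (-0.11 to 0.013), *EEF1G* (-0.049 to 0.020), *EIF2S1* (-0.021 to 0.083), *EIF3B* (-0.039 to 0.11), *EIF3K* (-0.031 to 0.064) and *EIF3L* (-0.098 to 0.0022). So did the balances of *EEF1B2* over *EEF1G* (-0.022 to 0.035), *EIF3A* over *EIF3B* (-0.013 to 0.25), *EIF3E* over *EIF3H* (-0.038 to 0.059), *EIF3K* over *EIF3L* (-0.0033 to 0.12), *EIF4B* over *EIF4H* (-0.058 to 0.075) and *EIF4G1* over *EIF4G2* (-0.16 to 0.014), and the correlations of *EIF4A1* with *EIF4A2* (-0.39 to 0.15), *EIF4B* with *EIF4H* (-0.15 to 0.31) and *EIF4G2* with *EIF4G3* (-0.036 to 0.16). The cause was not tested. No paired analysis was possible because replicate numbers are animal numbers and the groups share none.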
